A study of Homo sapiens with 13 samples.

Results

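Distal intronic peaks of very long genes are accessible sites that lie inside genes of at least 300 kb, away from any promoter and outside every exon. They were taken from an ATAC-seq table of T98G cells as the peaks that lie more than 2 kb from any transcription start site (TSS) of GENCODE release 44 on hg19, overlap no exon, and fall wholly inside a protein-coding gene of 300 kb or more. The rule found 15319 of 129347 peaks. Of 827 such genes, 784 held at least 1, with a median of 13 and at most 250, and 54 genes with 50 or more peaks each held 30.3% of them. The comparison classes were the 21703 distal intronic peaks of shorter protein-coding genes and the 39880 distal peaks that overlap no gene, chosen by the same distance and exon criteria.

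T98G is an established human glioblastoma line, and the study compared open chromatin between 3 G1 and 3 M-phase libraries. G1 cells had been kept without serum for 72 h. M-phase cells had been starved for 48 h, released for 36 h into medium with 20% serum and nocodazole at 0.2 µg/mL, a drug that blocks microtubule assembly and arrests cells in mitosis, and harvested by shaking. The labels list a HiSeq run and a NextSeq run for every M-phase replicate, and the name of an M-phase column does not tell which of them it holds. Serum release, nocodazole and any difference between sequencing runs therefore cannot be told apart from the cell cycle phase, and nothing in the labels says whether replicates were separate cultures, so that p-values measure the spread between these libraries.

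In ATAC-seq a transposase inserts sequencing adapters into open DNA, and reads pile up over sites kept free of nucleosomes by bound proteins. Introns of long genes hold many enhancers, the sites where transcription factors act on promoters at a distance. Long genes are often genes of neurons and of cell adhesion, several overlap common fragile sites, and transcription through them is largely shut down in mitosis while chromosomes condense.

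The reference sequence (GRCh37, plus strand, 5′ to 3′) of 200 bp at the centre is shown for the 4 peaks that fell most in M-phase, to show what lies in the sites that lost signal. Capitals mark matches to 8 fixed motifs on either strand. These were AP-1 TGANTCA, FOX TGTTTAC, RUNX TGTGGTT, TEAD CATTCC, CEBP TTGCNNAA, SOX AACAATG, and the longer CTCF and NFI consensus sites.
ST6GALNAC3 chr1:76802861-76803060: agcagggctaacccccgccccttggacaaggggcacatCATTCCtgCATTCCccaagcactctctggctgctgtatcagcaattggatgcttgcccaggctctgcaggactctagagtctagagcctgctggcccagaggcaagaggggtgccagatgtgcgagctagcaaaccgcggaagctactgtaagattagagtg
DOCK2 chr5:169372947-169373146: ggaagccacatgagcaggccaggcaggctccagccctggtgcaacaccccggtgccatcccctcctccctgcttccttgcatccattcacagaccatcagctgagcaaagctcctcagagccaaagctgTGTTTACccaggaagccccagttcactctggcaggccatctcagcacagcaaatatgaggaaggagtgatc
SLC27A6 chr5:128072370-128072569: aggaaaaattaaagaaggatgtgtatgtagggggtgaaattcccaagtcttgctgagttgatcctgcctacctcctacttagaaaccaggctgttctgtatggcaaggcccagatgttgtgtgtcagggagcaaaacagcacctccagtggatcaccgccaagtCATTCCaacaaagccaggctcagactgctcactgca
GALNTL6 chr4:173883812-173884011: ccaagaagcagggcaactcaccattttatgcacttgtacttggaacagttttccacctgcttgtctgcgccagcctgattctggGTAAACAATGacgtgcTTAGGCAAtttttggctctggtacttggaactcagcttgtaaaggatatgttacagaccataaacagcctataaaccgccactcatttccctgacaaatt
The ST6GALNAC3 and SLC27A6 peaks hold the TEAD letters, and the DOCK2 peak holds the FOX letters. In the GALNTL6 peak the FOX and SOX matches overlap within a run of capitals, and a CEBP match follows. None of the 4 windows holds the AP-1 letters.

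The same window is shown for 3 of the 4 peaks that rose most, as the counterpart of the set above.
TRIO chr5:14178839-14179038: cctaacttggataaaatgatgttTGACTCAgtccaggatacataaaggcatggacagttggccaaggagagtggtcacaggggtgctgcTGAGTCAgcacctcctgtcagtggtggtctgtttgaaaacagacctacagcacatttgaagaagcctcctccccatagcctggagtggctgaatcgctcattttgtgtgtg
RUNX1 chr21:36254156-36254355: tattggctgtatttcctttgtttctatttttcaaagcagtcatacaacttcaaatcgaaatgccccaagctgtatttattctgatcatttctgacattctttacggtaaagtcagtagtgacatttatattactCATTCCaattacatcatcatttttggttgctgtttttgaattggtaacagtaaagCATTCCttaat
DLGAP1 chr18:3624351-3624550: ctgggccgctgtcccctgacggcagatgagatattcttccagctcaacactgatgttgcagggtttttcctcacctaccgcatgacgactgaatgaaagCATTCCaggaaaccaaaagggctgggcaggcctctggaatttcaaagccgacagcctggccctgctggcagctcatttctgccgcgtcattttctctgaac
The TRIO window holds the AP-1 letters at positions 24 and 90, counted from 1 at the left end. The RUNX1 and DLGAP1 windows hold TEAD letters. A match is a description of the sequence, not of a bound factor.

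The scaled counts, which are reads in a peak scaled down by the authors to the smallest library, added up over all peaks to 4191845 to 5092426 in the G1 libraries and 5475345 to 6000423 in the M-phase libraries. Peaks of long genes were weaker, narrower, poorer in GC and farther from a TSS than peaks as a whole. Their median mean scaled count was 8.43 against 11.0 for all peaks, their median width 210 bp against 254 bp, their median GC content 47.1% against 50.6%, and their median distance to a TSS 24.0 kb against 9.10 kb. Part of the distance was set by the rule, which asks for more than 2 kb from a TSS. Peaks of shorter genes had a median scaled count of 9.40 and intergenic peaks one of 9.45, so the low level was shared by distal peaks. In the same order their median widths were 218 bp and 224 bp, their GC contents 49.4% and 49.2%, and their TSS distances 9.47 kb and 20.4 kb. In 57.1% of the long-gene peaks the mean scaled count was under 10, and at that level a difference of a few reads decides the change.

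As a whole the peaks of long genes held a smaller part of the accessible signal in M-phase. They took up 5.28%, 5.52% and 5.37% of the scaled counts in peaks in G1 replicates 1, 2 and 3, and 4.03%, 3.72% and 3.77% in the M-phase libraries. Mean shares went from 5.39% ± 0.120 (SD, n = 3) to 3.84% ± 0.165 (SD, n = 3), with no overlap between phases. An exact permutation test, two-sided, gave p = 0.1, and 3 against 3 libraries allow no smaller p.

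This share falls also where signal elsewhere rises. Summed scaled counts in long-gene peaks were 227634, 231420 and 273498 in G1 and 220674, 217889 and 226298 in M-phase, so G1 replicate 3 stood apart. Peaks of shorter genes summed to 385930, 401110 and 455963 in G1 and 395220, 403152 and 419619 in M-phase. As totals over all peaks were higher in M-phase, their share was lower there too. The long-gene peaks were therefore set against their nearest classes. The scaled counts in long-gene peaks came to 59.0%, 57.7% and 60.0% of those in peaks of shorter genes in G1, and to 55.8%, 54.0% and 53.9% in M-phase. Against intergenic peaks they came to 32.7%, 32.2% and 33.5% in G1 and to 31.2%, 30.3% and 30.8% in M-phase. In each case every M-phase library lay below every G1 library (exact permutation p = 0.1 for each). These ratios compare sums within a library, so that scaling between libraries does not enter.

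**Figure D1:**
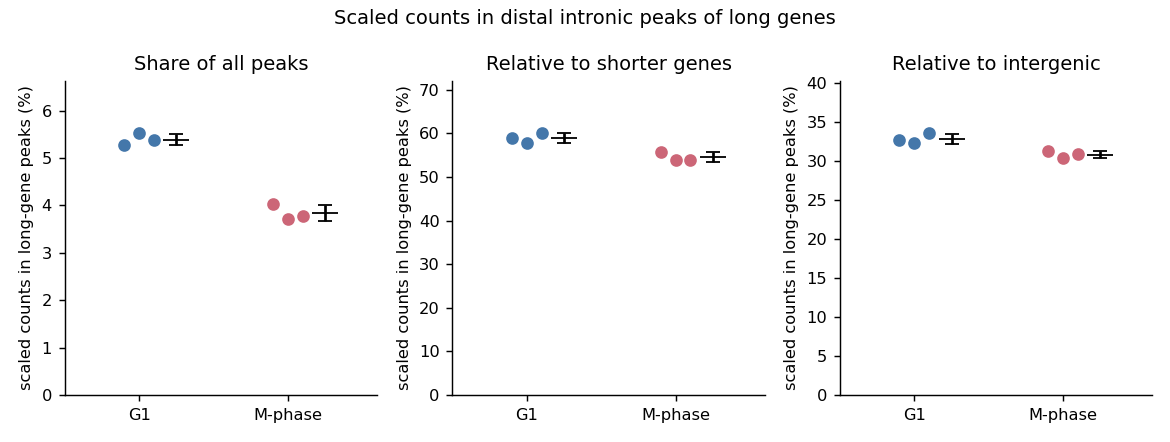
Scaled counts in distal intronic peaks of long genes per library (points; G1 in blue, M-phase in red) as a percentage of those in all peaks, in distal intronic peaks of shorter genes and in intergenic distal peaks, with mean and SD (n = 3) in black. In all 3 panels the M-phase libraries lie below the G1 libraries, and the mean share of all peaks went from 5.39% to 3.84%.

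The share is taken within each library, whereas the changes below rest on the deposited scaling, under which M-phase totals in peaks were higher. On that scaling a typical long-gene peak did not fall. The median log2 change, M-phase over G1 on the log2(scaled count + 8) scale used throughout, was 0.06 against 0.07 over all peaks, and 0.04 for peaks of shorter genes and for intergenic peaks. With equal totals in every library it was -0.11 for long-gene peaks and -0.12 over all peaks. In each library the median long-gene peak lay below the median peak of the other classes by about the same amount in both phases (difference of the differences 0.000, exact permutation p = 1 against each class). Medians move here in steps of a read, and the mean in place of the median gave -0.004 against shorter genes (exact permutation p = 0.9).

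Values below 0 were found among the stronger peaks. Of the 3031 long-gene peaks that averaged 20 scaled counts or more, a limit chosen after seeing the data at which every peak entered the test, 60.8% had a log2 change below 0 and the median was -0.16. The median of the same kind was 0.07 for all peaks, -0.08 for peaks of shorter genes and -0.10 for intergenic peaks. Scaling moved these values: with a trended loess the medians were -0.07 for long genes and -0.01 for shorter genes, and with equal totals -0.44 and -0.37. Per library, the median of these long-gene peaks minus that of shorter genes was -0.10, -0.102 and -0.057 log2 units in G1 and -0.119, -0.149 and -0.166 in M-phase, a difference of -0.058 (exact permutation p = 0.1). Against intergenic peaks the difference was -0.035 (exact permutation p = 0.3) and the libraries overlapped. With the mean of these peaks in place of the median the differences were -0.113 against shorter genes and -0.081 against intergenic peaks (exact permutation p = 0.1 for each), and the phases did not overlap in either.

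Single peaks were tested with limma over the 73121 peaks of the table that passed a filter on low values, with Benjamini-Hochberg adjustment over all of them and a call at an adjusted p under 0.05. That filter favours peaks high in at least 1 phase. Its limit was scaled to each library's total in peaks, so it was lower in G1 than in M-phase. Peaks high in G1 thus entered more easily. Of the 15319 long-gene peaks, 7093 (46.3%) passed. Of these, 347 (4.89%) were higher in M-phase and 1188 (16.7%) lower. Over all peaks tested the shares were 14.3% higher and 13.1% lower. Shorter genes gave 7.66% and 15.9%, and intergenic peaks 5.84% and 15.1%, so that all 3 distal classes had a smaller share of rises and a larger share of falls than the table as a whole.

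Of the long-gene calls, 77.4% were lower. With no filter on low values 507 long-gene peaks were higher and 1280 lower. Equal totals in every library shifted the median of all peaks by -0.19, and then 137 long-gene peaks were higher and 2036 lower (93.7% of calls), while over all peaks 74.0% of calls were lower. All 3 M-phase libraries lay above all 3 G1 libraries in 746 (10.5%) of the long-gene peaks tested and below in 1670 (23.5%), against 19.7% and 18.6% over all peaks tested. G1 replicate 3 was the highest G1 library in 75.4% of the peaks called lower and in 42.2% of those tested and not called. Without it 382 peaks were higher and 853 lower. Its part in the falls was not tested.

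Where peaks averaged 20 scaled counts or more, 6.80% of the long-gene peaks were higher and 22.7% lower, against 12.2% and 19.5% for shorter genes, 9.17% and 19.4% for intergenic peaks and 22.8% and 14.3% for all peaks. From 50 to 100 scaled counts 31.8% of 591 long-gene peaks were lower and 10.5% higher, and from 100 upwards 30.9% of 181 were lower and 23.2% higher. From 50 to 100 the peaks of shorter genes had 22.1% lower and 16.6% higher, and intergenic peaks 25.1% and 12.4%. In the top class 17.7% of the peaks of shorter genes were lower and 35.5% higher, and 16.2% and 32.0% of intergenic peaks. Without G1 replicate 3 the shares at 20 or more were 8.41% higher and 17.5% lower in long genes against 14.2% and 15.4% in shorter genes. With a trended loess they were 8.38% and 21.3% against 13.2% and 18.3%, and with equal totals 3.27% and 38.8% against 6.42% and 34.6%.

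**Figure D2:**
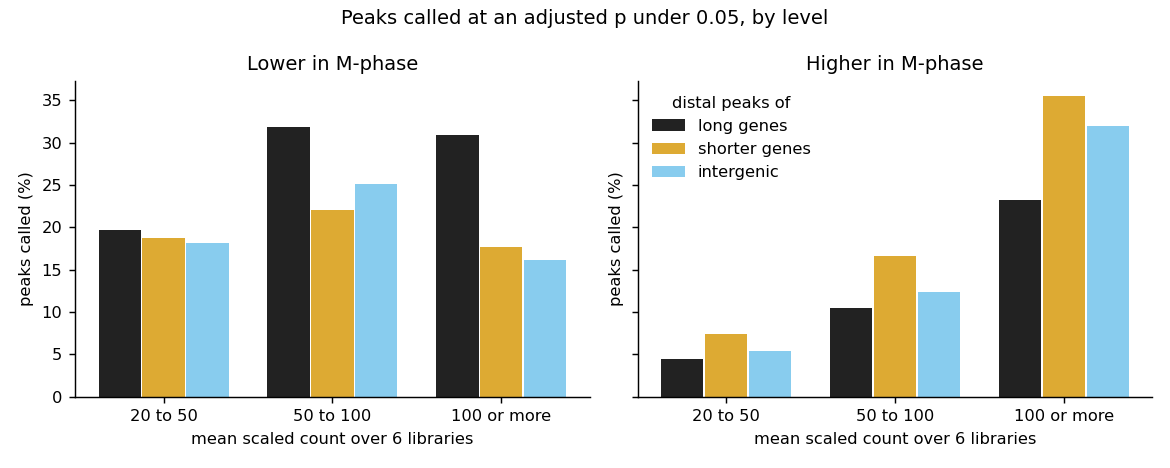
Percentage of distal peaks called lower (left) or higher (right) in M-phase at an adjusted p under 0.05, by mean scaled count over 6 libraries, for long genes (black), shorter genes (yellow) and intergenic regions (blue), at levels where every peak was tested. At 100 or more, 30.9% of the long-gene peaks were lower against 17.7% for shorter genes.

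The largest fall was a peak of 323 bp at chr1:76802799-76803121 in ST6GALNAC3, which encodes a sialyltransferase, 263 kb into a gene of 560 kb. Its scaled counts were 44.7, 59.4 and 100 in G1 replicates 1, 2 and 3 and 13.6, 4.5 and 0.0 in M-phase replicates 1, 2 and 3. G1 replicate 3 was the highest. No M-phase library reached a G1 library, but all falls and rises named here were chosen to have no overlap between phases. The log2 change was -2.49 (SE 0.298, adjusted p = 8.88e-11 from limma).

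The peak at chr5:169372835-169373257 in DOCK2, an activator of Rac best known from blood cells, was steadier across G1. It had 105.4, 91.4 and 111 scaled counts in G1 and 12.4, 7.4 and 23.1 in M-phase, a log2 change of -2.37 (SE 0.258, adjusted p = 3.27e-12). The phases were far apart in every library.

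A peak at chr5:128072205-128072734 in SLC27A6, a fatty acid transport protein, went from 74.6, 82.8 and 168 to 14.4, 11.5 and 16.4 (log2 change -2.32, SE 0.260, adjusted p = 9.86e-12). The peak at chr4:173883524-173884298 near the 3′ end of GALNTL6, of the family that starts O-linked glycans, went from 98.4, 80.5 and 131 to 12.8, 9.5 and 22.1 (log2 change -2.30, SE 0.257, adjusted p = 8.10e-12). In each the highest G1 library was replicate 3, and the lowest G1 value was still over the highest M-phase value.

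The other 4 of the 8 largest falls lay in PDZRN4 (chr12:41915636-41916203), PTPRG, a receptor tyrosine phosphatase (chr3:62095272-62095613), FGGY, a carbohydrate kinase (chr1:59833070-59834175), and SEMA3A, a secreted guidance cue for axons (chr7:83654638-83655204). Their log2 changes lay between -2.28 and -2.13. FGGY was the strongest of them, with a mean of 163 ± 68.7 scaled counts (SD, n = 3) in G1 against 26.9 ± 6.31 in M-phase. The FGGY gene as a whole, named after its values were seen, held 39 such peaks of which 8 were lower, and its summed counts went from 1108, 1080 and 1446 to 604.3, 545.6 and 581.5 (log2 change -1.05, SE 0.112, adjusted p = 4.21e-09).

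The largest rise was in TRIO, a guanine nucleotide exchange factor, at chr5:14178511-14179366. Scaled counts were 50.7, 64.1 and 73 in G1 and 287.1, 360.9 and 361.4 in M-phase. Every M-phase library stood far above the G1 range (log2 change 2.29, SE 0.198, adjusted p = 1.85e-16). This peak lies 35.5 kb from the 5′ end of the gene and 4.54 kb from the nearest annotated TSS.

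In RUNX1, which encodes a Runt-domain transcription factor, the peak at chr21:36253894-36254617 had 5.0, 10.9 and 28 scaled counts in G1 and 62.2, 80.8 and 59.7 in M-phase. The log2 change was 1.86 (SE 0.280, adjusted p = 8.98e-08), and G1 was near the level where few reads decide. A stronger peak at chr18:3623514-3625386 in DLGAP1, a scaffold of excitatory synapses, went from 125.3, 139.1 and 206 to 533.9, 492.4 and 522.1 (log2 change 1.70, SE 0.179, adjusted p = 8.57e-13). In both genes the phases did not overlap.

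The other rises lay in KCNMA1, the pore subunit of a calcium-activated potassium channel (chr10:79264771-79266575), NEDD4L, a ubiquitin ligase (chr18:55890916-55891831), TANC2 (chr17:61352684-61353171), NRG1, a ligand of ERBB receptors (chr8:32189085-32189466), and ERC1 (chr12:1582725-1584365). Their log2 changes ran from 1.65 to 1.77. The strongest was ERC1, with 91.5, 86.7 and 133 in G1 and 360.5, 314.0 and 338.8 in M-phase. The NEDD4L peak lies 2.05 kb from a TSS, just inside the distance rule.

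**Figure D3:**
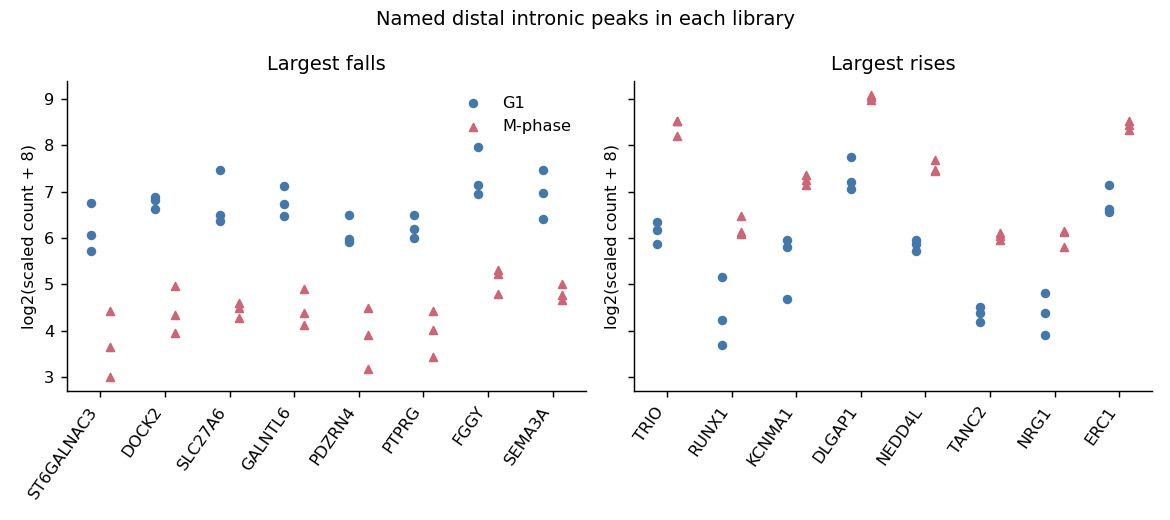
log2(scaled count + 8) in each library of the 8 long-gene peaks with the largest falls (left) and the 8 with the largest rises (right), named by gene, with G1 as circles and M-phase as triangles. Only peaks without overlap between phases could be chosen, and the TRIO peak had at most 73 scaled counts in G1 and at least 287.1 in M-phase.

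The 5 peaks with the highest mean signal were named whatever their change. Outside DLGAP1 their log2 changes lay between -0.62 and 0.25 in the reported setting. They do not stand for strong peaks at large. At 100 scaled counts or more, 30.9% of 181 long-gene peaks were lower and 23.2% higher. A peak of 2449 bp at chr16:85556824-85559272 in GSE1 had 428.5, 393.8 and 420 scaled counts in G1 and 406.6, 407.1 and 422.5 in M-phase. Its phases overlapped (log2 change -0.01, SE 0.163, adjusted p = 0.984), although it was called lower with a trended loess (-0.80) and with equal totals (-0.35). IGF1R, the receptor of insulin-like growth factor 1, had a peak at chr15:99394350-99397131 with a log2 change of 0.25 (adjusted p = 0.281), which became -0.51 with the loess and 0.41 (adjusted p = 0.0289) without G1 replicate 3.

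In COL23A1, a transmembrane collagen, the change at chr5:178012457-178012744 was -0.32 (adjusted p = 0.184), and it passed the test without G1 replicate 3 (-0.46), with a trended loess (-0.97) and with equal totals (-0.67). The widest of all long-gene peaks, 8127 bp at chr7:158123258-158131384 in PTPRN2, had 303.2, 411.7 and 380 in G1 and 231.5, 204.8 and 266.1 in M-phase. Its log2 change was -0.62 (SE 0.176, adjusted p = 0.00431), and without M-phase replicate 2 the call was lost (adjusted p = 0.0716).

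Gene by gene, falls were far more frequent than rises. The peaks of each gene were summed and fitted in the same way over 5957 protein-coding genes of any length. Of 755 long genes tested, 42 (5.56%) were higher in M-phase and 209 (27.7%) lower, against 7.69% higher and 16.0% lower over all genes, and 8.0% and 14.3% among genes under 300 kb. Of the 755 long genes, 76 were higher and 276 lower without overlap between the libraries. Over all 5957 genes these counts were 854 (14.3%) and 1375 (23.1%). The share of long genes was thus smaller for rises and larger for falls. Long genes have more peaks to sum, a median of 14 against 3, and so more counts.

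Sums of like size were set side by side, with no test of the difference between lengths. Where sums lay between 100 and 200, 33.6% of 149 long genes were lower and 4.03% higher, against 17.1% and 11.3% of 772 shorter genes. Above 400, 22.5% of 178 long genes were lower and 8.99% higher, against 14.3% and 32.8% of 119 shorter genes. Without G1 replicate 3, 75 long genes were higher and 172 lower. Without M-phase replicate 3, 27 were higher and 176 lower. With a trended loess 68 were higher and 223 lower, and with equal totals 17 and 485.

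**Figure D4:**
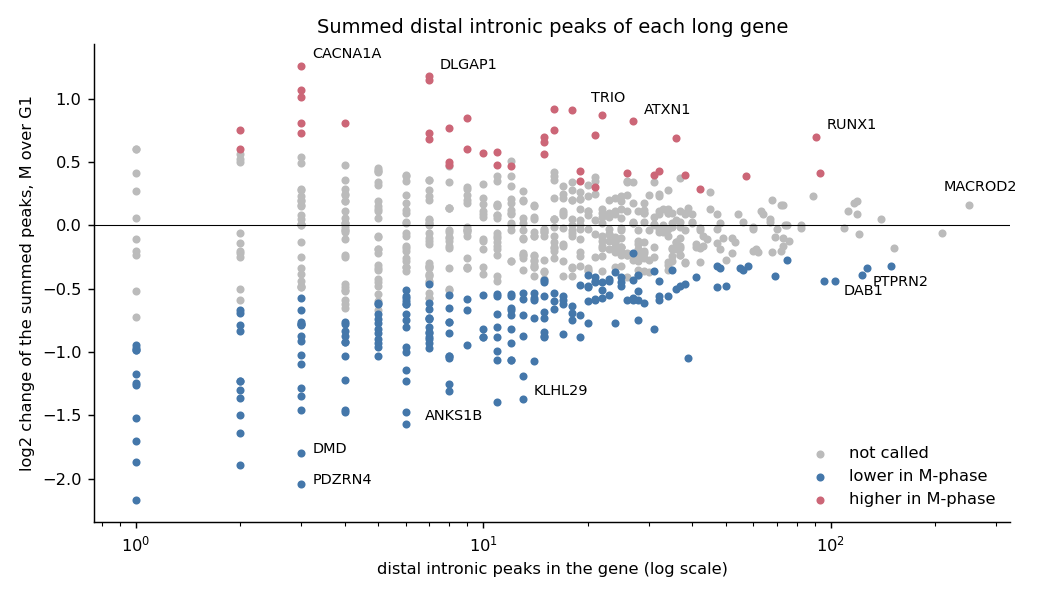
log2 change of the summed distal intronic peaks (M-phase over G1) of each long gene tested outside chromosome Y, against the number of such peaks in the gene on a log scale; blue genes were lower, red genes higher and grey genes not called. Falls below -1 occur mostly in genes with few peaks, while the genes with most peaks, such as MACROD2 with 250, lie near 0.

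Among genes with at least 3 peaks, PDZRN4, named for its PDZ and RING domains, fell most, with sums of 102.4, 113.3 and 142 in G1 and 28.4, 17.7 and 23.1 in M-phase (log2 change -2.04, SE 0.224, adjusted p = 7.69e-09). Without its strongest-moving peak, which is the one named above, the change was still -1.46. DMD, the gene of dystrophin, held only 3 peaks over 2242 kb, and all 3 were lower. Its sums were 87.4, 44.5 and 121 against 18.6, 16.6 and 15.4 (log2 change -1.80, SE 0.260, adjusted p = 1.23e-06), and the G1 libraries differed widely.

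UTRN, the gene of the related utrophin, had sums of 35.7, 41.5 and 65 in G1 and 9.5, 10.3 and 15.9 in M-phase (log2 change -1.46, SE 0.263, adjusted p = 4.90e-05). GRM7, a metabotropic glutamate receptor, and NTRK2, the receptor of the neurotrophin BDNF, had log2 changes of -1.57 and -1.47 and were called lower. All 4 tested peaks of GRM7 were called lower, as were all 3 tested peaks of ABLIM1. Of the 591 genes with at least 3 tested peaks, none had every one of them higher.

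NAV3, BANK1, ANKS1B, KLHL29 and CFAP299 completed the 10 largest falls, with log2 changes between -1.47 and -1.35. KLHL29, a member of the kelch family, held 13 peaks, of which 6 were lower and none higher. Its sums were 614.5, 649.3 and 943 in G1 and 287.1, 240.9 and 297.9 in M-phase (log2 change -1.37, SE 0.140, adjusted p = 1.64e-09). G1 replicate 3 was well above the other G1 libraries, and every G1 sum lay above every M-phase sum.

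CACNA1A, a voltage-gated calcium channel, rose most, from 36.9, 51.6 and 58 to 114.2, 121.5 and 144 over its 3 peaks (log2 change 1.26, SE 0.207, adjusted p = 1.15e-05). With only peaks over 5 kb from a TSS its change was 0.66 (adjusted p = 0.0878). DLGAP1 (1.18) and NEDD4L (1.15) followed, and each rested on its named peak. Without that peak the sums of DLGAP1 changed by -0.22 and those of NEDD4L by 0.00.

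Rises spread over several peaks in TRIO, ATXN1, KCNMA1 and RUNX1. The 22 peaks of TRIO summed to 881.8, 824.2 and 1012 in G1 and 1586, 1665 and 1732 in M-phase (log2 change 0.87, SE 0.0961, adjusted p = 7.69e-09), 8 were higher and none lower, and without the largest the change was 0.65. ATXN1, the ataxin 1 gene, went from 486.1, 418.1 and 511 to 792.6, 823.6 and 894.1 (log2 change 0.82, SE 0.116, adjusted p = 9.70e-07), with 9 of 27 peaks higher and none lower. All 9 lay between 20.2 and 79.9 kb from the 5′ end of ATXN1, and none of the 8 tested peaks farther in was called. In TRIO the 8 higher peaks lay between 10.9 and 123 kb from the 5′ end.

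RUNX1 held 91 peaks, the most among the transcription and chromatin genes listed. Its sums were 1155, 1146 and 1306 in G1 and 1934, 1860 and 2071 in M-phase (log2 change 0.70, SE 0.0886, adjusted p = 1.35e-07). Of its 43 tested peaks, 14 were higher and 1 lower. The higher ones were spread from 79.5 to 1196 kb along the gene.

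KCNMA1 had sums of 384.7, 454.7 and 451 in G1 and 766.4, 850 and 835.4 in M-phase (log2 change 0.92, SE 0.118, adjusted p = 1.73e-07), with 6 of 13 tested peaks higher. ERC1, MID1, TANC2 and NPAS3 were the remaining named rises, from 0.85 to 1.07. Without its named peak the sum of ERC1 changed by 0.37 and that of TANC2 by 0.28. The phases then overlapped in TANC2 but not in ERC1. NPAS3, a neural transcription factor gene with 3 peaks, lost its call without G1 replicate 1 (0.76, adjusted p = 0.0559) or without M-phase replicate 3 (0.71, adjusted p = 0.0852), and its phases overlapped.

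**Figure D5:**
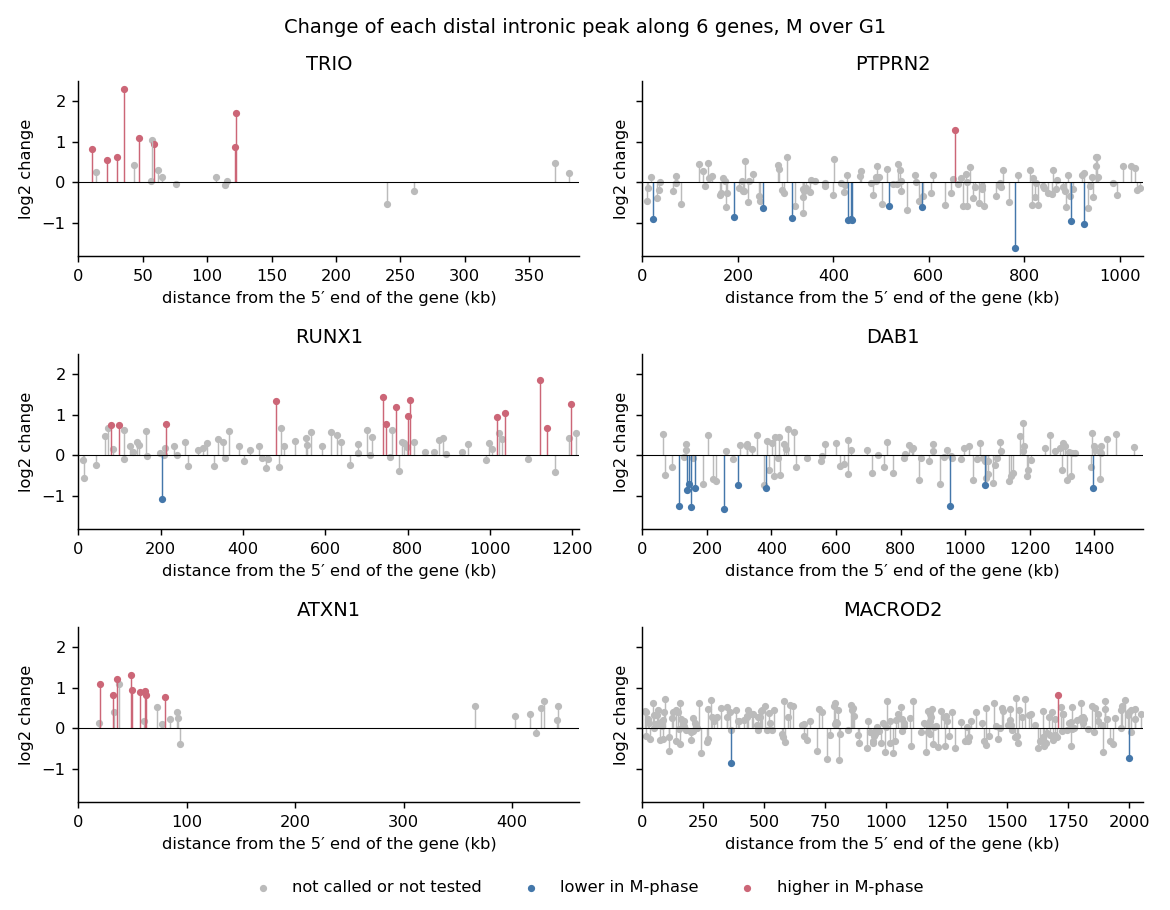
log2 change (M-phase over G1) of each distal intronic peak against its distance from the 5′ end of the gene in kb, for TRIO, RUNX1, ATXN1, PTPRN2, DAB1 and MACROD2; red peaks were higher, blue lower and grey not called or not tested. In ATXN1 the 9 higher peaks lie within 79.9 kb of the 5′ end, whereas the 12 lower peaks of PTPRN2 are spread from 22.9 to 925 kb.

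The genes with most peaks changed little in sum. MACROD2, which encodes an ADP-ribosyl hydrolase, held 250 peaks, and its sums were 2873, 2841 and 2988 in G1 and 3312, 3177 and 3240 in M-phase. The phases did not overlap, the log2 change was 0.16 (SE 0.0694, adjusted p = 0.0874), and only 1 of 108 tested peaks was higher and 2 were lower. Its direction turned to -0.19 with equal totals, and without G1 replicate 3 it passed the test at 0.18 (adjusted p = 0.00293).

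CNTNAP2, a neuronal adhesion protein with 209 peaks, changed by -0.06 (SE 0.0779, adjusted p = 0.661), ERBB4, a receptor tyrosine kinase with 152, by -0.18 (adjusted p = 0.125), and CDK14, a cyclin-dependent kinase with 140, by 0.05 (adjusted p = 0.747). With equal totals CNTNAP2 (-0.41, adjusted p = 2.87e-06) and CDK14 (-0.31, adjusted p = 0.000697) were called lower. ERBB4 passed the test with TMM, trended loess or equal totals, and without G1 replicate 2 (-0.24, adjusted p = 0.0399). Of the 10 genes with most peaks, PTPRN2, SPAG16 and DAB1 were lower and none was higher.

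PTPRN2, a receptor-type phosphatase of secretory vesicles, went from 4730, 5717 and 4761 to 3941, 3871 and 4303 (log2 change -0.32, SE 0.0683, adjusted p = 0.000377) with 12 of 110 tested peaks lower. DAB1, an adaptor in reelin signalling, went from 1484, 1465 and 1752 to 1200, 1182 and 1178 (log2 change -0.39, SE 0.0923, adjusted p = 0.00122) with 11 of 50 tested peaks lower and none higher. SPAG16, a protein of the sperm flagellum, changed by -0.34 (adjusted p = 0.00335). DLGAP2, DPP6 and RBFOX1 changed by -0.07, 0.09 and 0.19 and did not pass the test. With equal totals DLGAP2 (-0.43, adjusted p = 1.72e-05) and DPP6 (-0.26, adjusted p = 0.00931) were called lower.

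Peaks of the same gene could go opposite ways. A peak called lower was present in 513 long genes and a peak called higher in 203, with 147 genes that had both and 215 with neither. In 26 genes with a lower sum a peak was higher, and in 10 genes with a higher sum a peak was lower. Among 6423 tested peaks in 458 genes with at least 5 of them, 12.9% of the variance in log2 change lay between genes, and the SD within genes was 0.523. Any grouping of peaks puts some variance between groups, and that part was not estimated. Neighbouring tested peaks of a gene had log2 changes with a Pearson's r of 0.168 at gaps under 2 kb (539 pairs) and 0.240 at 2 to 10 kb (1178 pairs), 0.186 at 10 to 50 kb (1275 pairs) and 0.15 beyond 50 kb (348 pairs), a description over pairs that share the libraries.

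Gene lists were described by their counts, with no test of the list, beside 27.7% lower and 5.56% higher for all long genes and a median log2 change of -0.16. Genes of common fragile sites, regions that tend to break under replication stress, were lower in 10 of 21 and higher in none, with a median of -0.35. Without G1 replicate 3 these counts were 6 and 3. Of its 998 peaks 399 were tested, 71 (17.8%) were lower and 4 higher, beside 16.7% lower and 347 higher of all 7093 long-gene peaks tested, and the median log2 change of its peaks was 0.08. Their 4 members with most peaks were MACROD2, CNTNAP2, DAB1 and DLG2, of which DAB1 was the one that passed the test.

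Ion channel and transmitter receptor genes were lower in 15 of 40 and higher in 3, among them the calcium channel gene CACNA1C (42 peaks, log2 change 0.29, adjusted p = 0.0360). DPP6, CACNA2D1 and GRM8, the others of that list with most peaks, did not pass the test. Adhesion and matrix genes were lower in 12 of 32 and higher in 2, and their members with most peaks, SGCD, CTNND2, CDH4 and CDH13, had log2 changes between -0.02 and 0.20 that did not pass. Cytoskeletal genes were lower in 10 of 32 and higher in 2, with ELMO1, MYO16, NAV2 and TIAM1 not called.

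Synaptic adhesion and guidance genes were lower in 7 of 36 and higher in 1, with a median of -0.07. TENM2, a teneurin, was lower (103 peaks, -0.44, adjusted p = 0.000589) and DSCAM, an adhesion molecule of neurites, was higher (93 peaks, 0.41, adjusted p = 0.00235). Without G1 replicate 3 that list had 3 lower and 4 higher. CNTNAP2 and PTPRT were not called.

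Transcription and chromatin genes were lower in 14 of 40 and higher in 6, where RUNX1 and HDAC9, a histone deacetylase (57 peaks, 0.39, adjusted p = 0.00601), were higher, ZFPM2, a GATA cofactor (56 peaks, -0.35, adjusted p = 0.0147), was lower, and TSHZ2 was not called. Signalling enzymes were lower in 8 of 31 and higher in 3, and ERBB4, PLCB1, PDE4D and DGKB, which have most peaks in that list, were not called. RNA binding genes were lower in 2 of 10 and higher in none, with RBFOX1, RALYL, ADARB2 and RBFOX3 not called. With equal totals each of the 8 lists had between 0 and 2 higher genes and between 5 and 28 lower ones.

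Calls did not run in order with length among the long genes. The percentage of tested peaks that were lower was 18.6% in genes of 300 to 400 kb, 16.4% at 400 to 500 kb, 14.7% at 500 to 750 kb, 17.2% at 750 to 1000 kb, 18.7% at 1000 to 1500 kb and 12.6% at 1500 kb or more. The percentage higher in the same order was 4.88%, 6.16%, 4.41%, 5.75%, 4.10% and 2.22%. Genes of 200 to 300 kb, just under the limit, had 19.1% lower and 7.35% higher, and genes of 100 to 200 kb had 16.4% and 7.35%. Genes of 50 to 100 kb had 14.2% lower and 7.45% higher, and genes under 50 kb had 12.4% and 9.31%. The percentage lower at 200 to 300 kb was thus above each value of the long genes. Around the 300 kb limit, the gene ENSG00000271949 (300.1 kb, log2 change 0.10), COBL (300.6 kb, -0.21) and NOS1AP (300.8 kb, -0.85) were just inside and PCBP3 (298.8 kb, 0.56), GHR (298.4 kb, 0.16) and ARMH4 (298.4 kb, -1.03) just outside, with values of either sign on both sides.

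Peaks were spread evenly along genes, with 19.6% to 20.4% of them in each of 5 equal segments. The percentage higher was 6.77% in the segment at the 5′ end and 3.32% in the segment at the 3′ end, while the percentage lower was 15% and 18.2%. Between these the values did not run in order, with 4.24%, 5.85% and 4.26% higher. By distance to a TSS the percentage lower was 16.6% at 2 to 5 kb, 15.9% at 5 to 10 kb and 18.1% at 10 to 20 kb. It was 16.2% at 20 to 50 kb, 16.4% at 50 to 100 kb, 18.2% at 100 to 200 kb and 19.5% of 41 peaks beyond 200 kb.

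Sequence features are described here without a test. Median GC content was 44.6% in peaks called lower, 45.6% in those called higher and 48.5% in those tested and not called. The RUNX letters, in 5.65% of all long-gene peaks and 4.75% of all peaks, were present in 13.2% of those lower and 5.76% of those higher. The FOX letters were present in 7.32% of those lower and 2.88% of those higher, against 3.45% of all long-gene peaks.

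The AP-1 letters, the site of the FOS and JUN factors shown in the TRIO window, were in 33.4% of the peaks called higher, 22.3% of those called lower, 15.3% of those not called and 11.9% of all peaks. TEAD letters were in 20.3%, 14.1% and 13.2% of the peaks lower, higher and not called, and CEBP letters in 13.7%, 7.49% and 8.10%. SOX letters were in 4.21% and 4.03% of the peaks lower and higher against 3.00% of all long-gene peaks. CTCF letters were in 0.842% and 0.288%, and NFI letters in 5 of all 15319 long-gene peaks.

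Read from the sequence side, 32.0% of 490 tested peaks with the RUNX letters were lower against 15.6% of those without, with median log2 changes of -0.37 and -0.05. With the FOX letters 31.4% of 277 were lower against 16.2% without. The share lower was also larger with TEAD (23.5% against 15.6%), CEBP (25.5% against 15.9%) and SOX letters (22.2% against 16.6%). With CTCF letters it was 16.4% against 16.8%, and with NFI letters 0 of 5 were lower. With the AP-1 letters 21.6% of 1229 were lower and 9.44% higher, against 15.7% and 3.94% without, so these peaks were called more often in either direction. They were also stronger, with a median mean scaled count of 20.9 against 17.0 without the letters, and for the RUNX letters these were 19.1 and 17.5. The part of level in the calls was not tested. The same shares in peaks of shorter genes were 11.3% with RUNX and 6.96% with FOX letters among those lower, and 33.0% with AP-1 letters among those higher, close to the values in long genes.

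Peaks of long genes were unevenly spread over chromosomes. Chromosome 7 held 2999 of them, 81.6 per Mb of long-gene sequence, chromosome 20 held 107 per Mb and chromosome 21 held 74.4 per Mb, while chromosome 14 held 3.59 and X 3.01 per Mb, against 33.3 over all. Tested peaks of any class were uneven too, with 8121 on chromosome 7, 3820 on 20 and 1451 on 21, against 871 on 14 and 991 on X. These are counts per chromosome, not per Mb. The calls are given beside those over every tested peak of the same chromosome, of any class. On chromosome 20, 3.49% of tested long-gene peaks were lower and 1.34% higher, beside 5.52% and 11.4% of all its tested peaks, and on chromosome 7 9.80% and 3.84% beside 9.40% and 7.17%. On X 38.1% of 42 tested long-gene peaks were lower, beside 25.5% of all, on chromosome 4 35.5% of 152 beside 27.9%, and on chromosome 3 31.0% of 407 beside 19.7%. Chromosome 21, which holds RUNX1 and DSCAM, had 17.5% of its long-gene peaks higher and 6.99% lower, beside 16.1% and 4.27% of all. Copy number of the chromosomes was not measured here, and its part in these numbers was not tested.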

How the data were processed

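Accessibility was measured by ATAC-seq in 3 G1 and 3 M-phase libraries. Chromatin fraction and input samples were not used here. Per the study's methods, the authors trimmed adapters with cutadapt, mapped reads to hg19 with Rbowtie in QuasR (up to 3 locations, 1 kept, so near-identical sequences share reads), dropped reads of the mitochondrial genome (samtools) and ran macs2 for broad peaks on the merged replicates of each phase, duplicates kept. Tool versions and a Tn5 shift are not given in the sources used here. The deposited signal values are reads per peak, brought by the authors to the size of the smallest library and given to 0.1. The depth behind a value is therefore known only on that scale, and intervals from counts were not computed. The deposited table also holds a log2 column of the authors' own comparison, which was not used. Unused columns of per-sample values numbered 0.

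Coordinates of peaks are 1-based. Genes, exons and TSSs came from GENCODE release 44 lifted to GRCh37. Tests used limma-trend (limma 3.58.1, R 4.3.3) on log2(scaled count + 8), since scaled values are not whole counts. Peaks and gene sums were kept when at least 3 libraries reached 10 and the total was at least 15. The limit of 10 held for a library of median size and was scaled to each library's total. A peak inside overlapping genes counted in each, which concerned 162 peaks inside more than 1 long gene. Overlapping long genes with the same peaks were thus counted separately. In the gene sums, a long-gene peak that also lay inside a shorter gene counted for that shorter gene too. Permutation tests used scipy 1.17.1, and other steps Python 3.11.15, numpy 2.4.6, pandas 2.3.3 and matplotlib 3.10.9. The fits were tested on simulated data. With 200 changed among 73121 peaks, 0% were recovered at a 1.5-fold change, 14% at 2-fold and 88% at 4-fold. With 200 changed among 5957 gene sums, 7%, 59.5% and 97% were recovered. Fewer features changed there than were called in the data, so recovery in the data may differ. A peak or gene not called may still have changed.

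Named peaks were, among those with an adjusted p under 0.05, a mean of at least 30 and no overlap between phases, the 8 largest falls and 8 largest rises with at most 1 per gene and direction. The 5 long-gene peaks with the highest mean were named whatever their test gave. Named genes were the 10 with most peaks, the 10 largest falls and rises among called genes with at least 3 peaks, and the 4 genes of each list with most peaks. Genes named outside this rule (FGGY as a gene, ABLIM1, and those at the length limit) were chosen after their values were seen. The members, lists, motifs and tests were chosen with earlier results of these data known. Alternatives were other scalings (TMM, equal totals, trended loess), a pseudocount of 1, other filters, the replicate block, each replicate left out, and other limits of gene length and TSS distance. The mean in place of the median, and a limit of 20 on the mean scaled count, were added after seeing the data. The sequence of 1 peak and the values of 1 gene are not reported here.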

Additional observations from a re-analysis of the deposited data

How the results depend on the processing

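The counts of long-gene peaks, 347 higher and 1188 lower, moved to 137 and 2036 with equal totals in peaks, to 206 and 549 with at least 10 in every library, to 529 and 1662 with genes of at least 200 kb, and to 169 and 613 with genes of at least 500 kb. Leaving out 1 replicate gave 234 to 382 higher and 853 to 1119 lower. The counts of long genes, 42 higher and 209 lower, moved to 17 and 485 with equal totals, to 68 higher with a trended loess, to 83 and 332 at 200 kb and to 16 and 85 at 500 kb. Leaving out 1 replicate gave 27 to 75 higher and 155 to 216 lower. The cause was not tested, apart from fewer or more peaks entering with another limit.

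The median log2 change of 0.06 was 0.02 with TMM, 0.04 with a trended loess, 0.11 with a pseudocount of 1, and turned to -0.11 with equal totals and -0.09 among peaks with at least 10 in every library. Leaving out 1 replicate gave 0.04 to 0.06. The difference of medians from shorter genes (0.000) was 0.009 with equal totals, -0.039 with at least 10 in every library, 0.012 with genes of at least 500 kb, 0.024 beyond 5 kb from a TSS and -0.058 for a mean of at least 20, and from intergenic peaks it was 0.009, -0.042, 0.012, 0.035 and -0.035. Leaving out 1 replicate gave -0.005 to 0.005 for either. The change in share of all scaled counts, -1.55 percentage points, ran from -1.64 to -1.48 without 1 replicate.

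Of the single values, equal totals turned IGF1R (-0.09), MACROD2 (-0.19), CDK14 (-0.31), DPP6 (-0.26) and RBFOX1 (-0.17), TMM turned CDK14 (-0.03), a trended loess turned IGF1R (-0.51), and leaving out 1 replicate moved GSE1 to values from -0.04 to 0.02. Same-numbered replicates did not deviate together (r of 0.00594, -0.0101 and 0.0284), and the labels do not say whether they were paired. With a replicate block 373 peaks were higher and 1246 lower, and 49 and 223 long genes. For the medians and the share no filter was applied in the reported setting, so that alternative equals it. The planned count test on recovered reads was not run, because rounding left too few values of M-phase replicates 1 and 2 on whole reads.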
